A study of Mus musculus with 12 samples.

Results

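Blastocysts of the HFD diet group were compared with blastocysts of the ND diet group, both without an siRNA, across all genes by RNA sequencing. The comparison takes 4 of the 12 libraries of the study, namely the 2 HFD control libraries (HFD_C) and the 2 ND control libraries (ND_C), chosen by their labels and by no measured value. All embryos were wild type of the outbred ICR stock (ICR_WT), came from superovulated oocytes fertilized in vitro, and were grown in KSOM medium to the blastocyst stage at 96 hours post insemination (hpi). Each library was made from a pool of 10 embryos, so the values average over 10 embryos and over all cells of each. HFD and ND are not spelled out in the labels; the study's title speaks of obese and normal weight mice, and the sources used here do not tell which parent received the diet, for how long or of what composition. The other 8 libraries, 2 each of HFD_siNT, ND_siNT, HFD_siNampt and ND_siNampt, came from zygotes electroporated at 3 to 6 hpi with a non-targeting siRNA or one against Nampt, and it is not stated whether control zygotes were electroporated without siRNA. Replicates 1 and 2 carry the batch labels 1 and 2, so each group has 1 library in each batch. Nothing in the labels ties a pool to particular parents, so p-values measure only the spread between pools, which may be technical.

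A blastocyst consists of an outer epithelium, the trophectoderm, and an inner cell mass that holds the future epiblast and the primitive endoderm. Obesity and high-fat feeding of female mice are known for lipid accumulation in oocytes and for stress of their endoplasmic reticulum and mitochondria. Acsl3 and Txnip, a pair of genes singled out here because an earlier analysis of these data had named them for this comparison, stand at the fat and sugar ends of that metabolism. Acsl3 encodes a long-chain acyl-CoA synthetase of the endoplasmic reticulum and lipid droplets, which activates fatty acids for storage in neutral lipid. Txnip encodes an arrestin-like protein that binds thioredoxin and restrains glucose uptake; its transcription is known to follow sugar phosphates through the factors MondoA and ChREBP, which bind a pair of E-box-like sites in its promoter.

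The promoters of this pair are shown because that response element is a feature of the DNA that can be read directly. Both come from the RefSeq promoter table on GRCm38.p6, span 250 bases before to 50 bases after the annotated start, and read 5′ to 3′ on the + strand. Capitals mark every match to CACGNG on either strand, N being any base. Txnip is taken from chr3:96557707-96558006 and Acsl3 from chr1:78657575-78657874.

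Txnip: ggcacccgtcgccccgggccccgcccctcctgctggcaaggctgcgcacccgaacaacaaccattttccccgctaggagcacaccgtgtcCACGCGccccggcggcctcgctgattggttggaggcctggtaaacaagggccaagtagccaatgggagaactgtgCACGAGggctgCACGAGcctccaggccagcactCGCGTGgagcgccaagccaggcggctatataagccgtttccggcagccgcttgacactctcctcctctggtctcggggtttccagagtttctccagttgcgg

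Acsl3: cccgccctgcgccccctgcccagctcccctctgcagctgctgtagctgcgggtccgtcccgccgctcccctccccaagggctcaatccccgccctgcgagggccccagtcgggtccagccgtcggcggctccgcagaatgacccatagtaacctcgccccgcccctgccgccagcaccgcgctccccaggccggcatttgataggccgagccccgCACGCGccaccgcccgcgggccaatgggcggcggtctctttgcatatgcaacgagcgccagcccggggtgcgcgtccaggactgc

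The Txnip window held 4 CACGNG matches, with their first bases at -160, -85, -74 and -52 from the start, and the Acsl3 window held 1, at -35. A match of this kind is common, since 27.5% of 32851 RefSeq promoters of this length hold it. The tandem arrangement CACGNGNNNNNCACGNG, a pair of matches with 5 free bases between them, was found once in the Txnip window, where it overlaps the matches at -85 and -74, and in 16 of all promoters (0.0487%). It was not found in the Acsl3 window. The motif TCACNCCAC, the usual letters of a sterol regulatory element, was found in neither window and in 1.24% of all promoters. CCAAT was found 2 times for Txnip, 1 time for Acsl3 and in 37.4% of all promoters.

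The HFD_C libraries held 47861237 and 49102170 expected counts and the ND_C libraries 49464253 and 45292145, so depth was close to even. Markers of the labelled stage were present. The trophectoderm keratins Krt8 and Krt18 stood between 1253 and 3254 CPM (counts scaled to library size, with TMM factors) in the 4 libraries, and the inner cell mass factor Pou5f1 between 31.1 and 34.7 CPM. Across genes on the log2 CPM scale, the HFD_C libraries correlated with each other at 0.970 and the ND_C libraries with each other at 0.967, while HFD_C libraries correlated with ND_C libraries at 0.965 to 0.973. Libraries of different diets were thus as alike as libraries of the same diet. ND_C replicate 2 was in the pairs with the lowest values, and some values below depend on it.

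Of 24411 genes, 14743 were deep enough to test, and 0 passed edgeR's quasi-likelihood test at an adjusted p under 0.05 (0% of genes tested, smallest adjusted p = 0.712). Before adjustment, 414 genes had p under 0.05 (2.81%), of which 207 were higher in HFD_C (1.40%) and 207 were lower (1.40%), where 5% of the genes tested would be 737. DESeq2, run on the same counts, called 7 genes (0.0475%), all lower in HFD_C, namely Abcb5, Eif3j1, Gm4027, Guca1a, Ifng, Trim43b and Tspan7. With low-count genes left in, edgeR called 80 genes, 28 higher and 52 lower, in a fit that assigned all genes 1 common trend of spread; among the genes described below these are the 7 just named, Fkbp6, Ggh, Slc7a3, Snap91, Xlr4a and 5 of the chromosome 12 cluster. The HFD_C and ND_C libraries did not overlap for 2086 genes higher in HFD_C (14.1%) and 2289 genes lower in HFD_C (15.5%). Most genes below were named for a small p or a large change, so groups that do not overlap add no support for them. The median log2 fold change of all tested genes was -0.01. For genes of at least 5 CPM the median standard error (SE) of a log2 fold change was 0.22. Every log2 fold change below is HFD_C over ND_C from the edgeR fit, and none of them passed in that fit with the filter.

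**Figure D1:**
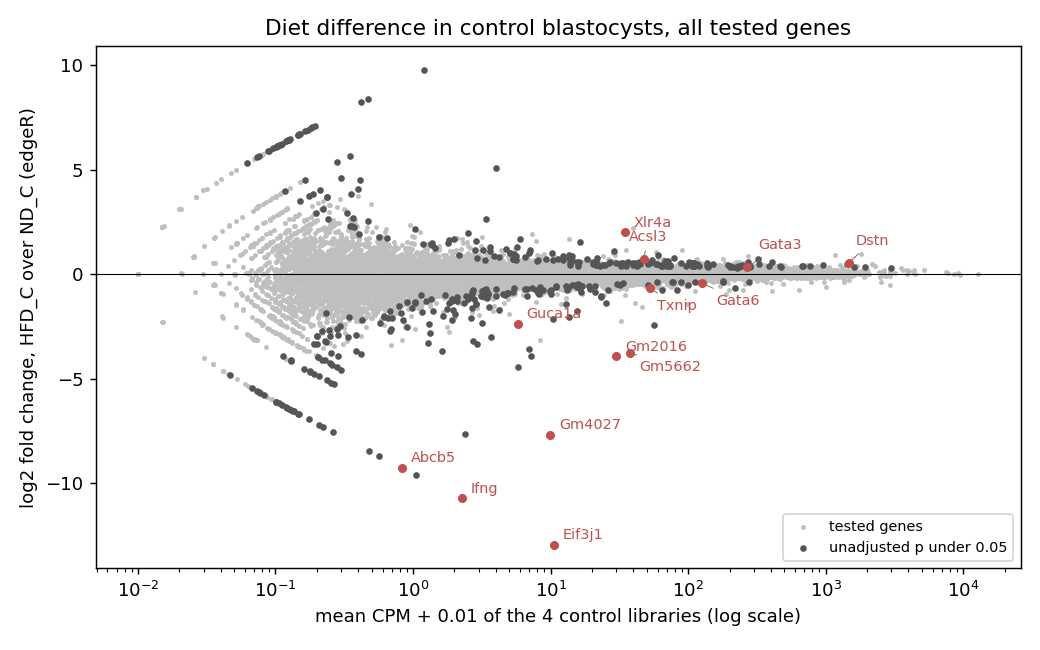
Log2 fold change of HFD_C over ND_C (vertical axis) against the mean CPM of the 4 control libraries plus 0.01 (horizontal log axis); each grey point is a tested gene, dark points have an unadjusted p under 0.05 and red points are genes named in the text. The median over all genes is -0.01, and the low end leans below 0 (median -0.17 in the lowest of 3 equal sets by mean CPM); Gm4027, Gm5662, Gm2016 and Eif3j1 lie far below both medians.

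Txnip stood at 41.3 and 40.3 CPM in HFD_C libraries, against 62.3 and 65.8 CPM in ND_C libraries. The HFD_C libraries were the lower pair and lay close together. The log2 fold change was -0.65 (SE 0.16), with an unadjusted p of 0.00145 and an adjusted p of 1 in edgeR, and it was -0.59 within batch 1 and -0.71 within batch 2. Acsl3 stood at 54.2 and 64.5 CPM in HFD_C libraries, against 34.2 and 36.9 CPM in ND_C libraries. Here HFD_C was the higher pair, and the groups again did not overlap. The log2 fold change was 0.74 (SE 0.19), with an unadjusted p of 0.00172 and an adjusted p of 1 in edgeR, and it was 0.66 and 0.80 within batches 1 and 2. DESeq2 gave adjusted p-values of 0.361 for Txnip and 0.314 for Acsl3. In a pool of whole embryos, fewer cells of a type and less RNA per cell cannot be told apart, for these genes and for all that follow.

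The 8 siRNA libraries give both genes a diet comparison that shares no library with the controls. Txnip stood at 47.2 and 51.2 CPM in HFD_siNT, 60.6 and 63.6 CPM in ND_siNT, 61.1 and 49.4 CPM in HFD_siNampt, and 66.6 and 60.9 CPM in ND_siNampt. It was lower in HFD in 4 of 4 pairs of the same treatment and batch, and the HFD and ND ranges overlapped slightly. The HFD siRNA libraries averaged 52.3 ± 6.13 CPM and the ND siRNA libraries 62.9 ± 2.80 CPM (SD, n = 4 each), and the exact two-sided permutation test on log2 CPM gave p = 0.0857, where 0.0286 is the smallest possible. Acsl3 stood at 45.2 and 42.2 CPM in HFD_siNT, 42.0 and 32.9 CPM in ND_siNT, 42.8 and 36.6 CPM in HFD_siNampt, and 40.1 and 34.6 CPM in ND_siNampt. It too kept its direction in 4 of 4 pairs, with means of 41.7 ± 3.62 CPM in HFD and 37.4 ± 4.33 CPM in ND (SD, n = 4 each) and an exact two-sided permutation p of 0.171. These 2 exact tests were added after the data were seen, and neither passed. They shuffled the 8 libraries freely and did not use the pairing by treatment and batch. The planned diet contrast of siRNA embryos in edgeR gave -0.27 (SE 0.11, unadjusted p = 0.0327) for Txnip. For Acsl3 it gave 0.16 (SE 0.13, unadjusted p = 0.257). In that contrast 0 genes passed after adjustment. Both HFD_C values of Acsl3 lay above all 10 other libraries, and both HFD_C values of Txnip lay below all 10 others. The difference between the diet effects in control and siRNA embryos was 0.58 (SE 0.23) for Acsl3 and -0.38 (SE 0.20) for Txnip on the log2 scale, both with an adjusted p of 1.00 in edgeR.

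**Figure D2:**
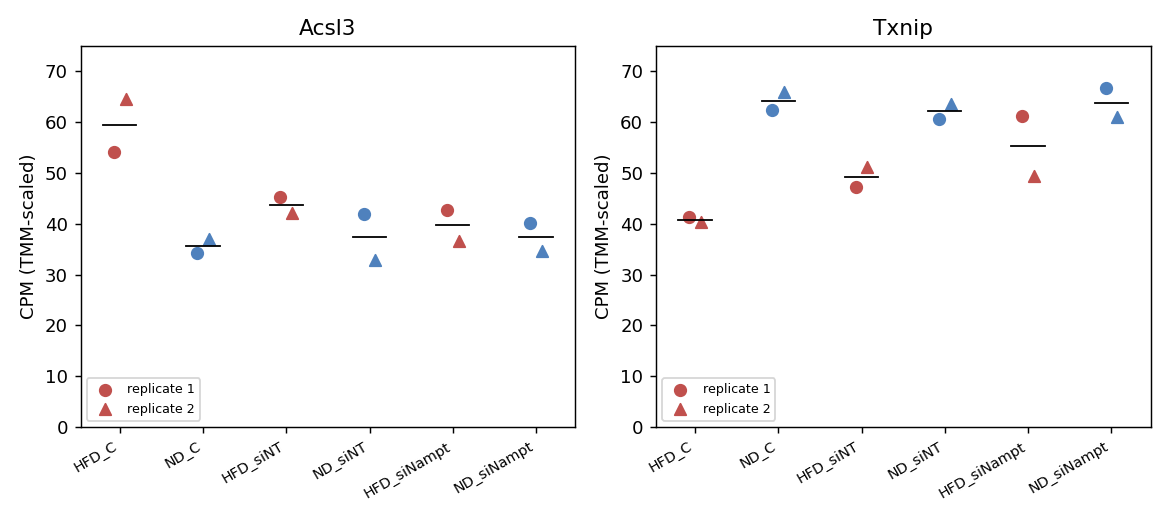
TMM-scaled CPM of Acsl3 and Txnip (vertical axes, from 0) in the 12 libraries by group; circles are replicate 1, triangles replicate 2, red is HFD, blue is ND, and each bar is the mean of 2 libraries. The HFD_C libraries are the highest for Acsl3 (54.2 and 64.5 CPM) and the lowest for Txnip (41.3 and 40.3 CPM) of all 12.

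Other genes of smallest p on the higher side follow. Fkbp6, an immunophilin known from the piRNA pathway of male germ cells, stood at 85.3 and 71.6 CPM in HFD_C, against 50.6 and 32.2 CPM in ND_C (log2 fold change 0.92, SE 0.24). Sgk3, a kinase related to Akt that is tethered to endosomes, stood at 97.4 and 76.8 CPM in HFD_C, against 60.6 and 49.8 CPM in ND_C (0.66, SE 0.18). Mzt1, a small subunit of the gamma-tubulin complex that nucleates microtubules, stood at 88.6 and 75.9 CPM in HFD_C, against 46.1 and 59.0 CPM in ND_C (0.65, SE 0.18). The groups did not overlap for any of the 3, while 14.1% of all tested genes were higher without overlap. Atl2, an atlastin that fuses tubules of the endoplasmic reticulum, stood at 128 and 116 CPM in HFD_C, against 84.9 and 91.4 CPM in ND_C (0.47, SE 0.14). Lysmd3 stood at 8.90 and 9.74 CPM in HFD_C, against 4.44 and 4.86 CPM in ND_C (1.00, SE 0.29), with the same value of 1.00 in each batch. Sestd1, a SEC14 and spectrin domain protein that binds phospholipids, stood at 6.49 and 7.15 CPM in HFD_C, against 3.53 and 3.16 CPM in ND_C (1.03, SE 0.29). In Lysmd3 and Sestd1 the libraries of a group lay within 1 CPM of each other. The adjusted p was 1 in edgeR for each of these 6 genes. Sdc2, the heparan sulfate proteoglycan syndecan-2, was low everywhere, with 3.05 and 4.88 CPM in HFD_C, against 1.195 and 0.807 CPM in ND_C (1.98, SE 0.54).

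The largest positive fold changes among genes of at least 5 CPM whose groups did not overlap belonged to Xlr4a, described with its relatives below, and to 4 others. Ggh, the lysosomal hydrolase of folate polyglutamates, stood at 12.9 and 5.40 CPM in HFD_C, against 3.01 and 2.59 CPM in ND_C (1.70, SE 0.71). Gstm5, a glutathione S-transferase, stood at 7.99 and 8.27 CPM in HFD_C, against 4.96 and 1.66 CPM in ND_C (1.29, SE 0.54). Slc7a3, a carrier of arginine and lysine, stood at 15.7 and 26.1 CPM in HFD_C, against 10.2 and 2.82 CPM in ND_C (1.68, SE 0.87). These genes scattered widely between pools whatever the diet. Slc7a3 alone ran over 3.26 to 50.5 CPM in the 8 siRNA libraries, and Snap91, a clathrin adaptor best known from neurons, ran over 0.741 to 22.4 CPM there, around its 10.1 and 13.2 CPM in HFD_C and 2.61 and 5.16 CPM in ND_C (1.59, SE 1.23).

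On the lower side Txnip was among the genes of smallest p, and the others stood below 10 CPM in HFD_C. Guca1a, a calcium sensor of guanylate cyclase known from photoreceptors, stood at 1.72 and 2.01 CPM in HFD_C, against 11.2 and 8.05 CPM in ND_C (log2 fold change -2.37, SE 0.61). Tspan7, an X-linked tetraspanin, stood at 5.79 and 2.01 CPM in HFD_C, against 23.1 and 10.96 CPM in ND_C (-2.13, SE 0.56). Neither gene's groups overlapped, while 15.5% of all tested genes were lower without overlap, and both were called by DESeq2. In the siRNA libraries Guca1a ran over 1.65 to 9.05 CPM, so values as low as those of HFD_C also occur there. Tspan7 ran over 2.67 to 16.5 CPM there, which takes in HFD_C replicate 1 but not the lower HFD_C replicate 2. Ifng, the cytokine interferon gamma, had 0 counts in both HFD_C libraries, against 1.49 and 7.50 CPM in ND_C. Against a floor of 3 counts over both HFD_C libraries it was at least 141-fold lower in HFD_C. Only the ND_C libraries carried Ifng through the filter on low counts. Its lower value in HFD_C followed from that filter, and its DESeq2 call adds no support. Ifng also lay between 0 and 0.0418 CPM in the 8 siRNA libraries of both diets, so the ND_C libraries are the ones that stand apart. Abcb5, a membrane transporter of the ABC family, had 0 counts in both HFD_C libraries, against 2.93 and 0.340 CPM in ND_C. Of its 163 counts in ND_C, 147 were in replicate 1, and replicate 2 lay within the 0 to 0.449 CPM of the siRNA libraries. The whole low end of the scale leaned the same way, since the median log2 fold change was -0.17 in the lowest of 3 equal sets of tested genes ranked by mean CPM, -0.05 in the middle one and 0.04 in the highest.

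A group of neighbouring genes on chromosome 12 also stood lower in HFD_C. Between 87514316 and 88274497 (GRCm38.p6), RefSeq places 17 protein-coding genes, of which 10 are in the tables and all 10 were tested. Of these, 8 had lower values in both HFD_C libraries than in both ND_C libraries, as did 15.5% of all tested genes. The interval was drawn around 6 genes already named from this same comparison, all lower in HFD_C. The count of 8 was thus largely fixed beforehand and cannot be weighed against that share. Outside the 6, Gm16381 and Gm21319 were lower without overlap (-0.85 and -5.21), while Oog1 and Gm2042 lay above 0 (0.63 and 0.50). The values of Gm21319, Oog1 and Gm2042 rest on few counts, with at most 0.658, 0.398 and 0.370 CPM in any control library. The cluster was looked at as a whole after its values were seen. Gm5662 stood at 7.88 and 2.59 CPM in HFD_C, against 101 and 40.3 CPM in ND_C (log2 fold change -3.76, SE 0.97). Gm2016 stood at 5.81 and 1.57 CPM in HFD_C, against 84.7 and 27.3 CPM in ND_C (-3.93, SE 1.10). Gm4027 stood at 0.0653 and 0.120 CPM in HFD_C, against 31.9 and 7.54 CPM in ND_C (-7.68, SE 1.28). In each of them ND_C replicate 1 was the highest library and ND_C replicate 2 the next.

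Gm2022, Gm8300 and BB287469 of the same cluster followed the same order of groups, with 0.159 to 1.28 CPM in HFD_C libraries, against 3.63 to 22.1 CPM in ND_C libraries. Summed over these 6 genes, the HFD_C libraries held 16.9 and 6.04 CPM and the ND_C libraries 274 and 93.4 CPM. The 8 siRNA libraries held 5.29 to 49.1 CPM, with 22.6 and 20.3 CPM in HFD_siNT and 14.2 and 13.5 CPM in ND_siNT. The HFD_C sums thus fell within the range of the siRNA libraries of both diets, and both ND_C sums lay above all 10 others. Most of these genes are near copies of others in the cluster, but Gm8300 is not. Between 20.8% (Gm8300) and 96.6% (BB287469) of the 50-base windows of their transcripts recur in another gene of the cluster. The split of reads is thus uncertain for most of them, and less so for Gm8300 and for the sum.

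A further 3 families also share sequence among their members, and the sums of HFD_C and ND_C overlapped only for the Eif3j pair. Eif3j1, a subunit of the translation initiation factor eIF3, had 0 counts in both HFD_C libraries, against 7.23 and 35.0 CPM in ND_C, at least 662-fold lower in HFD_C by the floor of 3 counts. In the siRNA libraries it was found in HFD instead, at 11.6 CPM in HFD_siNT replicate 1 and 23.7 CPM in HFD_siNampt replicate 1, and the other 6 held at most 0.0252 CPM. Its near copy Eif3j2 stood at 283 and 252 CPM in HFD_C, against 254 and 214 CPM in ND_C. The sum of both was 283 and 252 CPM in HFD_C, against 261 and 249 CPM in ND_C, a difference within the gap between the HFD_C libraries. Trim43b belongs to a family of TRIM genes active in early embryos. It stood at 3.59 and 7.17 CPM in HFD_C, against 30.1 and 13.8 CPM in ND_C (log2 fold change -2.03, SE 0.51). In the siRNA libraries of both diets Trim43b ran over 3.04 to 13.6 CPM, which takes in both HFD_C values. Both ND_C values lay above that range. Summed with Trim43a and Trim43c, Trim43b came to 415 and 281 CPM in HFD_C, against 471 and 491 CPM in ND_C, mostly from Trim43a. Xlr4a, of an X-linked family with imprinted members, was the gene of smallest p among higher ones after Acsl3, at 65.1 and 45.8 CPM in HFD_C, against 7.51 and 20.2 CPM in ND_C (2.00, SE 0.52). Summed with Xlr4b and Xlr4c it came to 314 and 233 CPM in HFD_C, against 213 and 222 CPM in ND_C, so HFD_C replicate 1 was high and the other 3 libraries lay close together. Eif3j2, Trim43a, Trim43c, Xlr4b and Xlr4c were named after their values were seen.

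**Figure D3:**
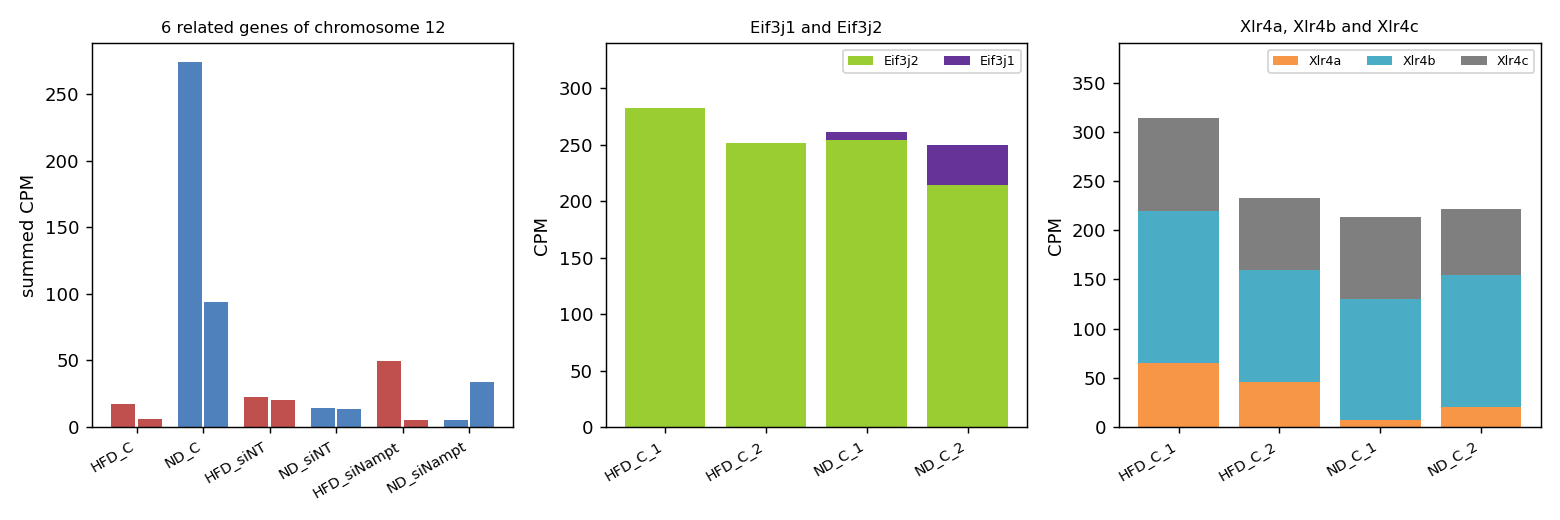
Left, CPM summed over 6 related genes of the chromosome 12 cluster in the 12 libraries (1 bar per library, replicate 1 then 2, red HFD, blue ND); middle and right, stacked CPM of Eif3j1 with Eif3j2 and of Xlr4a, Xlr4b and Xlr4c in the 4 control libraries. The cluster sum is 274 and 93.4 CPM in ND_C and at most 49.1 CPM elsewhere, while the Eif3j sum is nearly level at 249 to 283 CPM.

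Genes of lipid metabolism were grouped into lists by function, and 0 members of any list passed the test. Most enzymes of cholesterol synthesis had higher values in HFD_C. Of 9 enzymes of the mevalonate pathway 7 had a log2 fold change above 0, with a median of 0.19, and of 12 later sterol enzymes 10 did, with a median of 0.16, beside a median of -0.01 and 48.3% above 0 for all genes tested. Fdps, the farnesyl diphosphate synthase, stood at 222 and 227 CPM in HFD_C, against 187 and 143 CPM in ND_C (0.44, SE 0.20). Msmo1, which removes methyl groups from sterol precursors, stood at 337 and 228 CPM in HFD_C, against 221 and 150 CPM in ND_C (0.61, SE 0.33). Sc5d, a desaturase of the last steps, stood at 18.5 and 11.9 CPM in HFD_C, against 10.9 and 8.13 CPM in ND_C (0.68, SE 0.31). The groups did not overlap for any of the 3, though the gap was small for Msmo1 and Sc5d. Of all tested genes, 14.1% were higher in HFD_C without overlap. The sterol median was 0.31 within batch 1 and 0.03 within batch 2, and that of the mevalonate enzymes was 0.12 and 0.23. Insig1, which holds back the SREBP factors that drive these enzymes, stood at 40.2 and 39.0 CPM in HFD_C, against 29.3 and 24.7 CPM in ND_C (0.55, SE 0.31), while its list of 18 SREBP regulators and cholesterol carriers had a median of 0.00.

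Most relatives of Acsl3 lay on the other side of 0. Of 14 tested acyl-CoA synthetases 4 had a log2 fold change above 0, and the median was -0.19. In siRNA embryos the median diet difference of this list had the opposite sign, at 0.25. On the TPM scale, which accounts for transcript length, Acsl3 had 14.2 and 18.3 TPM in HFD_C, against 9.68 and 10.7 TPM in ND_C. Next came Acsl6, with 4.96 and 8.94 TPM in HFD_C, against 8.14 and 11.1 TPM in ND_C, and Acsf2, with 6.53 and 7.08 TPM in HFD_C, against 6.21 and 10.1 TPM in ND_C. Acsl3 was therefore the most abundant acyl-CoA synthetase in 3 of these 4 libraries, and in ND_C replicate 2 Acsl6 stood slightly above it. Acacb, the acetyl-CoA carboxylase of the mitochondrial surface, stood at 2.00 and 2.53 CPM in HFD_C, against 3.94 and 4.08 CPM in ND_C (log2 fold change -0.82, SE 0.36), in a list of 14 genes of fatty acid synthesis with a median of 0.11.

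Among 24 tested genes of lipid droplets and triglycerides, 15 had a log2 fold change below 0. The median was -0.11, or 0.0010 without ND_C replicate 2. An unadjusted p under 0.05 was found for 3, all lower in HFD_C, where 1.40% of all tested genes were lower at that p. Lpin3 and Lpin1 encode lipins, the phosphatases that make diacylglycerol for triglyceride synthesis. Lpin3 stood at 2.07 and 2.13 CPM in HFD_C, against 3.79 and 4.80 CPM in ND_C (-1.03, SE 0.31). Lpin1 stood at 1.28 and 2.07 CPM in HFD_C, against 2.87 and 4.88 CPM in ND_C (-1.21, SE 0.41). In siRNA embryos the diet difference was 0.46 for Lpin3, the opposite sign, and -0.08 for Lpin1. Lipe, the hormone-sensitive lipase, was near 0 in all, at 0.0218 and 0.0598 CPM in HFD_C, against 0.578 and 0.234 CPM in ND_C. In 28 genes of fatty acid oxidation the median was -0.02 with 14 on either side of 0.

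The lists of glucose metabolism had medians near 0. The Txnip list of 10 arrestins and MondoA or ChREBP genes had 5 members above 0 and 5 below, with a median of 0.01 that was -0.25 without HFD_C replicate 2 and 0.13 without ND_C replicate 1, and Txnip, already known from its own p, was its 1 member with an unadjusted p under 0.05, where 2.81% of all tested genes had one. Glycolysis genes had a median of -0.06 over 19, with -0.25 within batch 1 and 0.05 within batch 2, glucose and lactate transporters -0.03 over 10, and genes of pyruvate entry and the citric acid cycle 0.04 over 29. Subunits of respiratory complex I were below 0 in 27 of 37 genes, with a median of -0.05 that was -0.14 within batch 1 and 0.01 within batch 2. Cytosolic ribosomal protein genes were below 0 in 61 of 78, with a median of -0.07 and a lowest value of -0.32. Summed over the complex I subunits, HFD_C libraries held 11943 and 11892 CPM and ND_C libraries 12695 and 11752 CPM, which overlap. The ribosomal sum was 65060 and 63785 CPM in HFD_C, against 68401 and 65408 CPM in ND_C, a narrow gap.

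Stress genes gave no common direction except in the p53 list. Of 26 genes of p53 and its targets 23 were below 0, with a median of -0.17. Sesn2, a stress-induced brake on mTORC1 that is also an ATF4 target, stood at 1.57 and 2.09 CPM in HFD_C, against 3.53 and 3.59 CPM in ND_C (log2 fold change -0.96, SE 0.36). Phlda3, an inhibitor of Akt, stood at 31.3 and 34.9 CPM in HFD_C, against 39.9 and 53.4 CPM in ND_C (-0.49, SE 0.24). Btg2, an antiproliferative gene, stood at 24.4 and 26.8 CPM in HFD_C, against 27.0 and 48.1 CPM in ND_C (-0.55, SE 0.31). ND_C replicate 2 was the highest of the 4 control libraries for all 3. The list median was -0.03 within batch 1 and -0.46 within batch 2, and without ND_C replicate 2 it was -0.03, so the direction of this list rests on that library.

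Apaf1, the scaffold of the apoptosome, stood at 10.7 and 10.1 CPM in HFD_C, against 16.8 and 14.2 CPM in ND_C (-0.58, SE 0.23), in a list of 22 apoptosis genes with a median of -0.02. Of 28 antioxidant genes (median 0.04), Nqo1, a quinone reductase, stood at 1.41 and 1.83 CPM in HFD_C, against 2.71 and 4.14 CPM in ND_C (-1.07, SE 0.48). Gpx1, the main cytosolic glutathione peroxidase, stood at 1223 and 1249 CPM in HFD_C, against 1529.6 and 1465 CPM in ND_C (-0.28, SE 0.13). In these 3 genes, each among the smallest p of its list, HFD_C was lower without overlap, as it was in 15.5% of all tested genes. The 22 genes of chaperones of the endoplasmic reticulum and the unfolded protein response had a median of 0.06, with -0.21 within batch 1 and 0.26 within batch 2. The median was -0.02 for 13 heat shock genes and -0.03 for 17 genes of ATF4 and the integrated stress response. Batches pulled the ATF4 list apart, with -0.40 within batch 1 and 0.46 within batch 2, and likewise 16 amino acid transporters, with -0.38 and 0.65. For both lists HFD_C replicate 2 had a larger summed level than HFD_C replicate 1. The ATF4 list held 488 CPM against 293 CPM there, and 371 and 346 CPM in ND_C libraries.

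The lineage lists had medians on different sides of 0. Of 24 trophectoderm genes 16 were above 0 (median 0.16), of 24 genes of the inner cell mass and naive pluripotency 18 were below 0 (median -0.19), and of 21 primitive endoderm genes 13 were below 0 (median -0.14). Gata3, a trophectoderm transcription factor, stood at 275 and 325 CPM in HFD_C, against 257 and 220 CPM in ND_C (log2 fold change 0.33, SE 0.14). Dppa1, counted in the trophectoderm list, stood at 2355 and 1955 CPM in HFD_C, against 1776 and 1642 CPM in ND_C (0.33, SE 0.14). Tfap2c, another trophectoderm transcription factor, lay on the other side, at 36.9 and 45.5 CPM in HFD_C, against 48.3 and 60.4 CPM in ND_C (-0.40, SE 0.21). The groups did not overlap for any of these 3 genes, while 14.1% of all tested genes were higher and 15.5% lower without overlap. In siRNA embryos the diet difference was 0.11 for Gata3, -0.13 for Dppa1, the opposite sign, and -0.09 for Tfap2c. Cdx2, the founding trophectoderm factor, stood at 9.84 and 19.2 CPM in HFD_C, against 10.9 and 9.47 CPM in ND_C, so 1 HFD_C pool was high and the other was not. The keratins Krt8 and Krt18 had log2 fold changes of -0.09 (SE 0.13) and -0.08 (SE 0.18).

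Among primitive endoderm markers, measured here in pools of whole embryos, the transcription factors Gata6 and Sox17 stood lower in HFD_C. Of the 21 tested genes of that list 8 were above 0. The list summed to 1755 and 2153 CPM in HFD_C, against 1930 and 1946 CPM in ND_C, which overlap. Gata6 stood at 114 and 102 CPM in HFD_C, against 147 and 141 CPM in ND_C (-0.41, SE 0.18). Sox17 stood at 17.8 and 16.5 CPM in HFD_C, against 25.1 and 25.4 CPM in ND_C (-0.56, SE 0.22). Pdgfra, the receptor that marks and maintains these cells, stood at 40.9 and 44.8 CPM in HFD_C, against 62.0 and 54.0 CPM in ND_C (-0.44, SE 0.23). For all 3 the ND_C pair was higher in both batches. Gata4, a further marker, stood at 8.90 and 17.0 CPM in HFD_C, against 17.2 and 17.1 CPM in ND_C (-0.40, SE 0.39). Within batch 2 Gata4 differed by only -0.0067. In the siRNA libraries the diet difference was 0.01 for Gata6, -0.06 for Sox17 and 0.26 for Pdgfra on the log2 scale. Nanog, a factor of the epiblast, stood at 88.8 and 71.7 CPM in HFD_C, against 103 and 118 CPM in ND_C (-0.47, SE 0.30). Pou5f1 differed by -0.12 (SE 0.23) and Sox2 by 0.03 (SE 0.38).

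The medians of the lineage lists were not stable between batches. That of the trophectoderm was -0.06 within batch 1 and 0.32 within batch 2, and -0.06 without HFD_C replicate 2. That of the primitive endoderm was -0.44 within batch 1 and 0.17 within batch 2, and 0.07 without HFD_C replicate 1. The inner cell mass list stayed below 0 in both batches, at -0.31 and -0.05. In siRNA embryos the median diet difference was 0.0006 for the trophectoderm list, 0.13 for the inner cell mass list and 0.30 for the primitive endoderm list. Genes of tight junctions and the blastocyst cavity had a median of 0.10 over 24, or -0.02 without HFD_C replicate 2, with 0 at an unadjusted p under 0.05, where 2.81% of all tested genes had one.

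**Figure D4:**
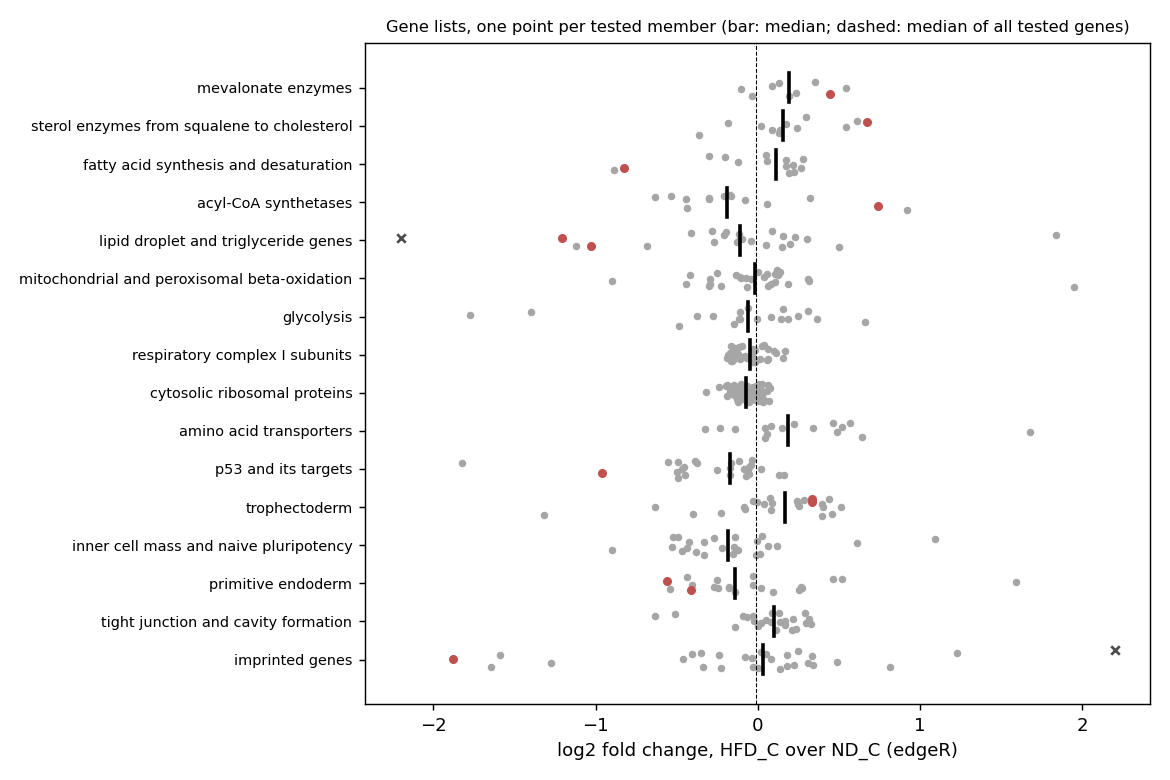
Log2 fold change of HFD_C over ND_C (horizontal axis) for the tested members of 16 lists, 1 point each; red points have an unadjusted p under 0.05, black bars are list medians, the dashed line is the median of all tested genes, and crosses at the edge are 2 members beyond 2.2. List medians lie between -0.19 and 0.19, and members spread to both sides of 0 in all 16 lists.

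Genes of chromatin and of developmental timing showed no common direction. Dnmt1, the maintenance DNA methyltransferase, stood at 9.12 and 9.74 CPM in HFD_C, against 14.3 and 11.2 CPM in ND_C (log2 fold change -0.44, SE 0.22). Dnmt3a, a de novo methyltransferase, stood at 20.4 and 26.5 CPM in HFD_C, against 33.7 and 30.7 CPM in ND_C (-0.46, SE 0.25). In siRNA embryos the diet difference had the opposite sign for both, 0.40 for Dnmt1 and 0.21 for Dnmt3a, and the list of 19 methylation and histone methylation genes had a median of -0.04 in controls. Of 34 imprinted genes present 30 were tested, with a median of 0.03 and 17 above 0. Of 23 genes of the 2-cell stage in the tables, 9 were tested; the median was -0.55, or 0.17 without HFD_C replicate 2, and Gm8300 of the chromosome 12 cluster is among them. Padi6, an oocyte gene of the cytoplasmic lattices, stood at 1.85 and 2.19 CPM in HFD_C, against 3.55 and 4.90 CPM in ND_C (-1.06, SE 0.40), in a list of 17 maternal genes with a median of -0.12. Cell cycle genes had a median of 0.02 over 27. Cdk1, the mitotic kinase, stood at 415 and 374 CPM in HFD_C, against 314 and 333 CPM in ND_C (0.29, SE 0.15), and Ccna2, its cyclin partner, at 211 and 193 CPM in HFD_C, against 168 and 169 CPM in ND_C (0.26, SE 0.13).

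The lists of hormone and NAD pathways also had medians near 0. The median was -0.07 over 22 genes of insulin and IGF signalling, with -0.28 within batch 1 and 0.25 within batch 2, 0.09 over 12 adipokine receptor and AMPK genes and -0.01 over 19 genes of NAD synthesis and sirtuins. Nampt, the gene targeted elsewhere in the study and the rate-limiting enzyme of NAD salvage, stood at 67.0 and 57.3 CPM in HFD_C, against 54.2 and 38.2 CPM in ND_C (0.43, SE 0.24). In siRNA embryos it stood at 50.3 and 44.0 CPM in HFD_siNampt, against 61.3 and 66.0 CPM in HFD_siNT, while ND_siNampt libraries held 53.9 and 37.7 CPM of it and ND_siNT libraries 74.6 and 49.4 CPM. Nmnat3, an NAD synthase assigned to mitochondria, stood at 0.958 and 0.777 CPM in HFD_C, against 0.219 and 0.276 CPM in ND_C (1.80, SE 0.66). Sirt3, the mitochondrial deacetylase that uses NAD, stood at 8.10 and 10.4 CPM in HFD_C, against 13.3 and 12.1 CPM in ND_C (-0.46, SE 0.24). The groups did not overlap for either gene, and the levels of Nmnat3 rest on few counts. Of all tested genes, 14.1% were higher and 15.5% lower without overlap. In siRNA embryos the diet difference had the opposite sign for both, -0.76 for Nmnat3 and 0.15 for Sirt3.

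Markers of cells that could accompany the embryos were close to 0. Cumulus and granulosa markers summed to 3.31 and 3.17 CPM in HFD_C, against 2.15 and 4.06 CPM in ND_C, with 4 of 10 genes tested and Ptx3 and Inhba at 0 in all 4 libraries. Sperm markers summed to 1.28 and 0.896 CPM in HFD_C, against 1.59 and 2.55 CPM in ND_C, with 3 of 6 tested and Tnp1 at 0 in all 4. The levels of genes that mark embryo sex did differ between pools. Y-linked genes summed to 302 and 276 CPM in HFD_C, against 302 and 107 CPM in ND_C, and Xist, which coats the inactive X chromosome of female cells, stood at 105 and 103 CPM in HFD_C, against 71.1 and 187 CPM in ND_C. ND_C replicate 2 was the low library for the Y-linked sum and the high one for Xist. Kdm5d, the Y-linked gene of lowest level, did not follow, at 2.48 and 2.57 CPM in HFD_C, against 4.24 and 2.89 CPM in ND_C. ND_C replicate 2 is also the library on which the p53 list rests, and the part of embryo sex in that result was not tested.

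Beyond Txnip and Acsl3, the genes at the ends of the control comparison were followed into the siRNA libraries, and their signs there were close to evenly split. Of the 207 genes higher in HFD_C at an unadjusted p under 0.05, 97 (46.9%) also had a positive diet difference in siRNA embryos, where 52.9% of all tested genes did. Of the 207 lower ones, 114 (55.1%) also had a negative one, where 47.1% of all did. Only 10 of the higher and 12 of the lower genes reached an unadjusted p under 0.05 with the same sign in siRNA embryos, and 8 and 6 did so with the opposite sign. By itself the diet contrast of siRNA embryos had 0 genes past the threshold in edgeR (0%) and 521 at an unadjusted p under 0.05 (3.53%), while DESeq2 called 3. The test of the difference between the diet effects of control and siRNA embryos also called 0 genes in edgeR (0%), with 501 at an unadjusted p under 0.05 (3.40%), while DESeq2 called 4.

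Dstn, which encodes the actin-severing protein destrin, was among the genes of smallest p in that difference. It stood at 1799.9 and 1701 CPM in HFD_C, against 1369 and 1017 CPM in ND_C (log2 fold change 0.55, SE 0.16), and differed by -0.32 in siRNA embryos. Fkbp6 and Sgk3 from the top of the higher side differed by -0.29 and -0.14 there. For Xlr4a, Sdc2 and Guca1a the siRNA embryos gave 0.86, 0.59 and -0.91, the sign seen in controls at a smaller size. The adjusted p of the difference was 1.00 in edgeR for each of these 6 genes. Summed with Xlr4b and Xlr4c, Xlr4a came to 210 to 313 CPM in HFD siRNA libraries and 206 to 322 CPM in ND ones. The family sum thus overlapped between diets there.

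**Figure D5:**
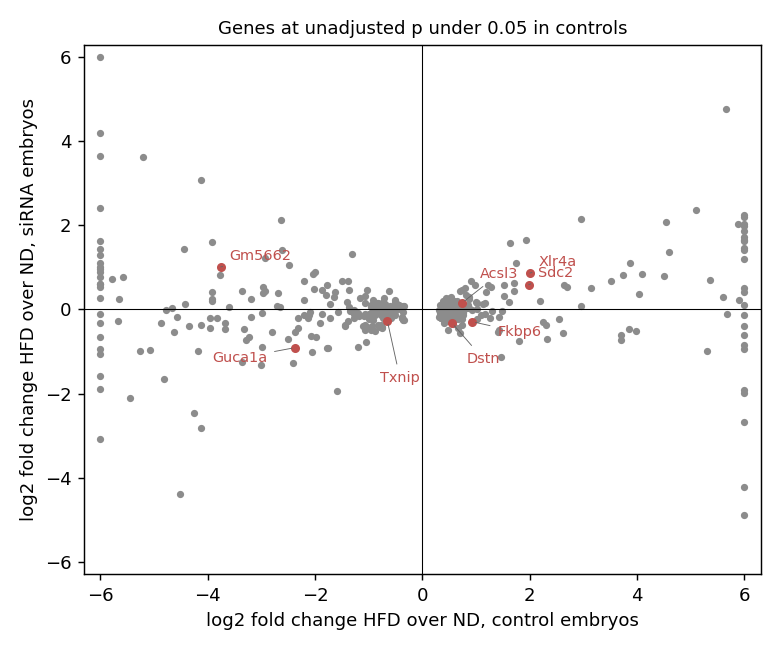
Log2 fold change of HFD over ND in siRNA embryos (vertical axis) against that in control embryos (horizontal axis) for the 414 genes with an unadjusted p under 0.05 in controls; red points are named genes, and 48 genes beyond 6 are drawn at the edge. Points scatter around 0 on the vertical axis on both sides, with 97 of 207 higher genes and 114 of 207 lower genes keeping their sign.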

How the data were processed

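Poly(A) RNA of 12 pools of blastocysts was made into libraries with a SMART-Seq kit, per the labels' protocols. The submitters' processing notes name STAR 2.7.10, RSEM 1.2.28 and mm10. Per the file headers, the deposited tables hold RSEM expected counts, TPM, FPKM (not used here) and gene lengths. The expected counts deposited by the authors were not whole in 6.43% of cases and were rounded. The TPM values deposited by the authors served for levels between genes and for an alternative. The sources used here do not name a strand setting, so overlapping antisense genes cannot be separated.

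All 12 libraries (42473129 to 50503064 expected counts) entered 1 edgeR 4.0.16 quasi-likelihood fit (R 4.3.3) of 6 group means, with TMM scaling, filterByExpr at a minimum count of 10 and Benjamini-Hochberg adjustment at 0.05, two-sided. This pools the spread, since 2 libraries a group cannot reach an exact p below 0.333. SE is the absolute log2 fold change over the square root of F. The fit was tested on simulated data. Alternatives were DESeq2 1.42.0, RLE factors, other filters, only the controls, limma 3.58.1 on log2 TPM, left-out libraries and the replicate block. The batch label equals the replicate number and so pairs libraries; the deviations of same-numbered HFD_C and ND_C libraries correlated at 0.0538 across genes.

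Genes were named by rule: Acsl3, Txnip, those of smallest p or largest change, DESeq2 calls, and up to 3 per list of smallest p; lineage markers, Nampt and others were named for their level. Not every gene the rule selects is reported here. Members and lists were chosen with earlier results of these data known.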

Additional observations from a re-analysis of the deposited data

How the results depend on the processing

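The count of 0 genes past the threshold in controls held with RLE factors, the stricter filter of 5 CPM in 2 libraries, limma on log2 TPM and each left-out library. DESeq2 called 7, all 7 lower in HFD_C. The 4 control libraries alone gave 2, both 2 lower (Eif3j1 and Gm4027). No filter on low counts gave 80 genes, 28 higher and 52 lower. At an unadjusted p under 0.05 no filter gave 853 genes (425 higher, 428 lower) and the stricter filter 205 (119 higher, 86 lower); fewer or more genes were tested there. Leaving out each library gave 284 to 753 genes (143 to 407 higher, 141 to 346 lower), the most without HFD_C replicate 2. For the difference from siRNA embryos it gave 333 to 961 genes (106 to 532 higher, 174 to 429 lower), the most again without HFD_C replicate 2 and the fewest without ND_C replicate 2; the cause was not tested. A left-out library leaves its group with 1, assumed to vary like the others. With the replicate block, 0 genes passed and 521 had an unadjusted p under 0.05, and the block changed no call. With 2 pools a group, the median SE was 0.22. For 60 of the genes with a fold change in the text, 797 of 830 values under alternatives kept direction and side of the threshold. Of the others, 26 kept direction and passed it, and 7, of 3 genes near 0, changed sign. Without 1 library, Krt8 ran from -0.18 to 0.0013 and was 0.031 within batch 2. Krt18 ran from -0.21 to 0.044 and was 0.16 within batch 2. Sox2 ran from -0.37 to 0.57 and was -0.38 within batch 1. Oog1 and Gm2042 of the chromosome 12 cluster were not among the 60 genes. Gm2042 changed sign within batch 2, at 0.0996 CPM in HFD_C and 0.170 CPM in ND_C.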
